A study of Mus musculus with 32 samples.

Results

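The genes of cholesterol biosynthesis and of its control were examined in cortical neuron cultures as a module of 30 genes, out of 49671 genes in the count table. The members were taken from a fixed list of symbols: 18 enzymes of the pathway from acetyl-CoA to cholesterol, 5 genes of the SREBP system that senses sterols, 4 genes of the liver X receptor (LXR) and of sterol export, and 3 genes of sterol transport and turnover. All 30 were found in the table and passed the filter on low counts at both time points, the lowest count of any of them in any library being 227. The cultures were prepared from the forebrains of embryonic C57BL/6 mice with the wild-type genotype and were kept in Neurobasal medium with B27 supplement. They were left untreated or exposed to one of 3 oligoribonucleotides, which were the microRNA strand miR-92a-1-5p, the microRNA strand miR-124-5p, and the control Mut.oligo with a mutated let-7b sequence, and RNA was sequenced after 6 h or 5 d. With 4 biological replicates in each of the 8 groups, there were 32 libraries of 24514090 to 73626029 counted reads. A count of 3 in the smallest library is 0.122 CPM (counts scaled to library size with TMM factors), so that counting error is small for every member.

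Cholesterol in the brain is made locally, since lipoproteins of the blood do not cross the blood-brain barrier, and developing neurons and astrocytes both run the pathway. The enzymes are under the control of the SREBP transcription factors. When sterols in the endoplasmic reticulum are low, the escort protein Scap carries SREBP to the Golgi, where it is cut and released, and when they are high, Insig proteins hold the complex back. Oxysterols act on LXR, which raises genes of sterol export such as Abca1 and Abcg1, the receptor-degrading ligase Mylip, and also Srebf1.

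The label of each library names an experiment batch, and batches are given here as letters: A to G at 6 h and H and J to N at 5 d. No batch holds libraries of both time points. Batch A holds miR-124-5p, untreated, and miR-92a-1-5p, B holds untreated and miR-92a-1-5p, C holds miR-124-5p, D holds untreated, Mut.oligo, and miR-92a-1-5p, E holds all 4 groups, F holds Mut.oligo and miR-124-5p, and G holds Mut.oligo. At 5 d, batch H holds miR-124-5p together with miR-92a-1-5p, J holds all 4 groups, K holds untreated and Mut.oligo, L holds the 3 oligoribonucleotides, M holds only 1 untreated library, and N holds all 4 groups. Neuronal markers were present throughout (Tubb3 between 738 and 2474 CPM), and the astrocyte marker Gfap reached 513 CPM at 5 d. In bulk samples, fewer cells of a type and less RNA per cell cannot be told apart. The labels do not say whether the libraries of a batch come from the same preparation of cells, and p-values between groups measure the spread between these libraries.

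The mature sequence of miR-92a-1-5p is shown because it is the oligoribonucleotide with the most genes called at 5 d. It lies on GRCm38.p6 at chr14:115044437-115044459 on the plus strand, is 23 bases long, and is given 5′ to 3′ with its seed (bases 2 to 8) in capitals.
mmu-miR-92a-1-5p: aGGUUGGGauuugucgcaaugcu
The sequence is the one in RefSeq.

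The promoters of 3 members are shown because these genes moved together or in opposite directions between experiment batches: Hmgcs1, which makes HMG-CoA, Mvd, which closes the mevalonate steps, and Abca1, which exports cholesterol. Each is the 150 bases before the annotated start in RefSeq (GRCm38.p6), 5′ to 3′ in the direction of the gene, and capitals mark matches to TCACNCCAC (a form of the sterol regulatory element), CCAAT (the NF-Y box), or GGGCGG (the Sp1 box) on either strand. The Hmgcs1 window is chr13:119690201-119690350 on the plus strand, the Mvd window is chr8:122443423-122443572 on the minus strand, and the Abca1 window is chr4:53159896-53160045 on the minus strand.
Hmgcs1: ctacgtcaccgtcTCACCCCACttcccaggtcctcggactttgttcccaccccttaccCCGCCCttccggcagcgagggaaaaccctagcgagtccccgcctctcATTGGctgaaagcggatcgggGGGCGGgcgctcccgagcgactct
Mvd: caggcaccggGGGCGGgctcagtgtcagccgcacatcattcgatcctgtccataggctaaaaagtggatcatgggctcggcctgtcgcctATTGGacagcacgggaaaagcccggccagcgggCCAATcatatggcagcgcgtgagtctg
Abca1: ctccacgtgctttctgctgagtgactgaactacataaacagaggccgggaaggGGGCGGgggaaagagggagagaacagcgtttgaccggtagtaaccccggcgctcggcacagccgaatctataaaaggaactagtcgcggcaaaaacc
Over the whole windows of 250 bases before to 50 bases after a start, 24 members had an entry, with 32 windows. TCACNCCAC was found in 1 of the 24 members (Hmgcs1), that is in 3.12% of their windows against 1.24% of all 32851 windows. CCAAT was found in 20 members and 65.6% of their windows against 37.4% of all windows. GGGCGG was found in 22 members and 81.2% of their windows against 35.7% of all. The windows of all genes were not limited to genes expressed in these cultures, as the members are. The 3 motifs do not overlap in the stretches shown. A match describes letters in the window and is not a binding site.

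To compare levels between genes, CPM was divided by the length of the gene's exons in GENCODE M21 (CPM per kb), and the medians over the 16 libraries of a time point are given. Among the mevalonate steps, Hmgcs1 (chr13:119690379-119708260, plus strand) was at 426 CPM per kb at 6 h and 440.1 at 5 d, the highest of the 30 genes at both times. Acat2, the thiolase that joins acetyl-CoA units and has the close paralog Acat3, was at 101 and 69.5. Mvd was at 68.96 and 50.7, Pmvk at 44.7 and 34.5, and Mvk at 21.9 and 14.8; these 3 genes encode the kinases and the decarboxylase that turn mevalonate into isopentenyl diphosphate. Idi1, its isomerase, was at 10.8 and 10.7 CPM per kb, and Fdps, which builds farnesyl diphosphate, at 6.23 and 4.62. The low level of Fdps is uncertain, since 1124 bases of its exons overlap the gene Gm43738 on the same strand.

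In the squalene and lanosterol steps, Fdft1 (squalene synthase, chr14:63145150-63179578, minus strand) was at 78.6 CPM per kb at 6 h and 53.4 at 5 d. Sqle (squalene epoxidase) was at 76.3 and 70.1, Lss (lanosterol synthase) at 18.6 and 14.2, and Cyp51 (lanosterol demethylase) at 103 and 91.3. The late steps ranged at 6 h from Ebp, a sterol isomerase, at 5.32 CPM per kb to Nsdhl, a dehydrogenase of demethylation, at 52.9. Msmo1 (the methylsterol oxidase), Sc5d (a desaturase), Dhcr7 (the final reductase), Hsd17b7 (a ketoreductase), and Tm7sf2 (a sterol reductase) lay between them. The level of Tm7sf2 is also uncertain, since 532 bases of its exons overlap the gene Vps51 on the same strand.

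Of the controlling genes, Srebf2, the SREBP that chiefly serves cholesterol synthesis, was at 72.5 CPM per kb at 6 h and 56.97 at 5 d, and Srebf1 (chr11:60199089-60222581, minus strand), which chiefly serves fatty acid synthesis, was at 11.02 and 15.7. Insig1 was at 57.9 and 49.7 and Insig2 at 7.14 and 6.55. Abca1 (chr4:53030787-53159895, minus strand) was at 6.90 and 23.3 CPM per kb, and the exporter Abcg1, the ligase Mylip, the lysosomal transporter Npc1, and the receptor gene Nr1h2 (LXR beta) stayed below 10 at both times. A pseudogene named after Nr1h2, Nr1h2-ps, is annotated. Stard4, which carries sterols through the cytosol, was at 19.3 and 14.1, and Cyp46a1, the hydroxylase with which neurons clear cholesterol, at 10.6 and 22.9.

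At 5 d, the members differed above all between experiment batches. In a test of the batch beside the group term, 25 of the 30 members passed at an adjusted p under 0.05 with edgeR, against 25.9% of all 19333 genes tested and 32.8% of the genes at or above the average level of the lowest member. The 25 included all 7 mevalonate and isoprenoid genes, all 4 squalene and lanosterol genes, 6 of 7 late genes, 3 of 5 SREBP control genes (Srebf1, Srebf2, and Insig1), all 4 LXR and export genes, and Stard4. Ebp (adjusted p = 0.0789), Scap (adjusted p = 0.96), Insig2 (adjusted p = 0.265), Cyp46a1 (adjusted p = 0.131), and Npc1 (adjusted p = 0.605) did not pass. The batches took a median of 95.6% of the sum of squares of log2 CPM over the members and 97.9% over the 18 enzymes, against 53.0% over all genes tested, and the 4 groups took a median of 10.9% over the members. With DESeq2, 26 members passed, and when each batch was left out in turn, between 23 and 27 passed. The shares of all genes under these alternatives are not given here.

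**Figure D1:**
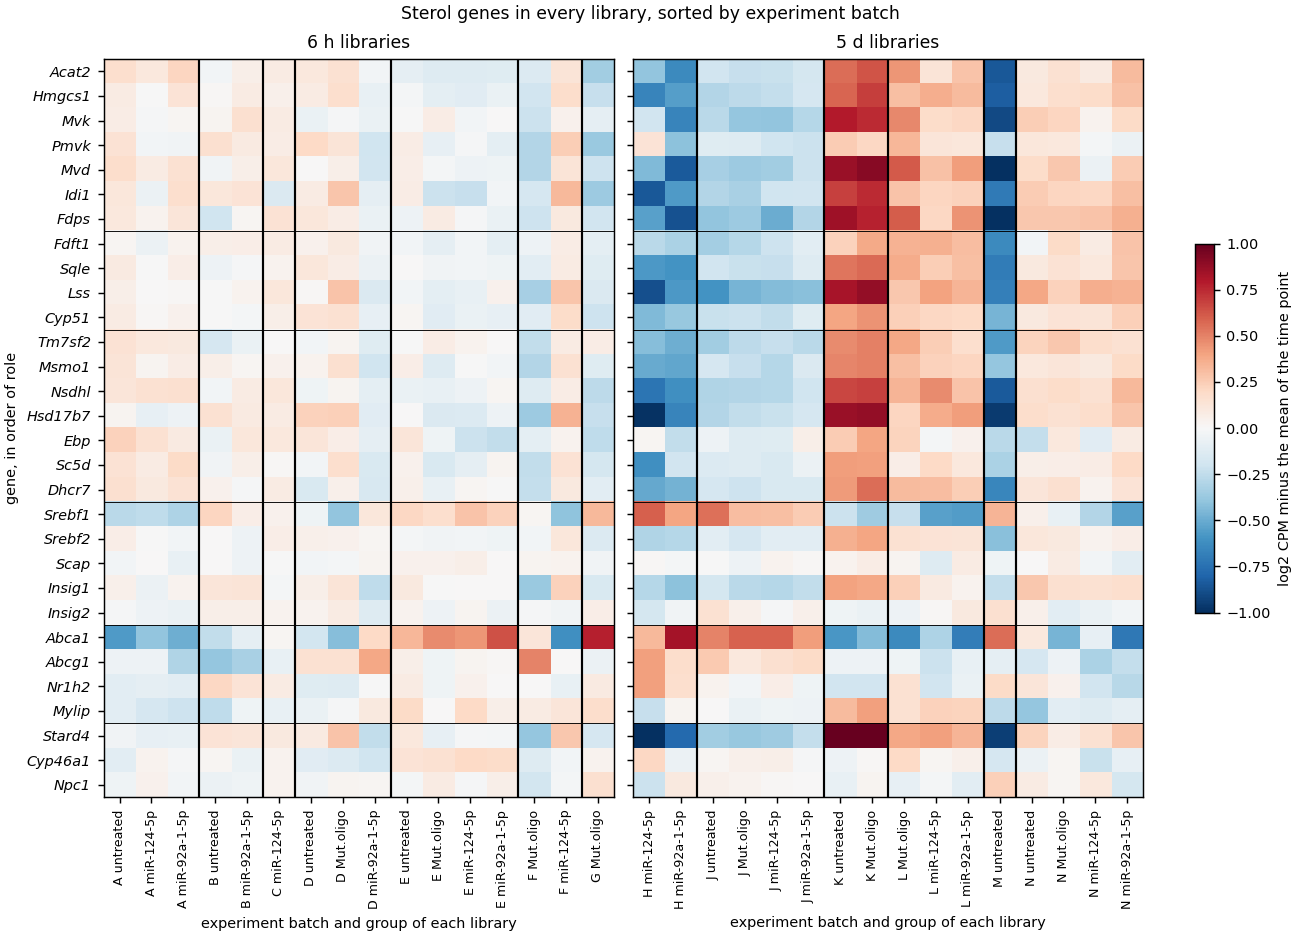
Log2 CPM of each of the 30 genes in each library, minus the gene's mean over the 16 libraries of the time point; columns are libraries sorted by experiment batch, rows are genes in order of role, and colors run from -1 to 1. At 5 d the enzymes are higher in both libraries of batch K and lower in batches H, J, and M with few exceptions, and Srebf1 and Abca1 run mostly the other way.

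For Hmgcs1, the 16 libraries of 5 d were at 1038 CPM at the lowest, 2022 at the median, and 2969 at the highest. By batch, they were at 1038 CPM in M, 1163 and 1252 in H, 1501, 1531, 1556, and 1638 in J, 1982, 2061, 2092, and 2254 in N, 2266, 2289, and 2362 in L, and 2752 and 2969 in K. The 6 batches did not overlap in Hmgcs1, although the libraries of a batch came from up to 4 groups (F test of the batch, adjusted p = 1.13e-07).

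Stard4 had the widest range. It was at 37.8 CPM in M, 34.1 and 42.4 in H, 55.8, 56.96, 57.2, and 61.6 in J, 76.5, 80.9, 85.1, and 88.2 in N, 92.1, 95.1, and 96.6 in L, and 159 and 160.4 in K, a highest library 4.70 times the lowest (F test of the batch, adjusted p = 1.13e-07).

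The other 6 mevalonate and isoprenoid genes were also highest in K or L. At 5 d, the lowest, median, and highest of the 16 libraries were at 39.2, 94.2, and 169 CPM for Mvd, at 7.62, 19.5, and 29.7 CPM for Fdps, and at 19.6, 39.7, and 63.8 CPM for Mvk. They were at 18.004, 37.6, and 54.4 CPM for Idi1, at 91.96, 177, and 257 CPM for Acat2, and at 42.99, 59.1, and 72.1 CPM for Pmvk. The lowest library was the one of batch M or one of H in all 6 genes, and the highest was one of K in all but Pmvk, where it was one of L. Pmvk varied least of the 7, with a range of 0.460 between batch means on the log2 scale against 2.09 for Mvd.

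Among the squalene and lanosterol genes, the lowest, median, and highest libraries were at 70.4, 154, and 238 CPM for Lss, at 224, 389, and 537 CPM for Sqle, and at 271, 403, and 509 CPM for Cyp51. Fdft1 was at 143 CPM in M, 178 and 184 in H, 176, 182, 192, and 206 in J, 217, 235, 254, and 271 in N, 261 and 288 in K, and 274, 283, and 284 in L. Unlike in Hmgcs1, the Fdft1 values of K overlapped those of L and those of N, and the values of H and J overlapped. In the late steps, the lowest, median, and highest libraries were at 25.6, 56.8, and 93.5 CPM for Hsd17b7, at 63.2, 126, and 183 CPM for Nsdhl, and at 101, 167, and 232 CPM for Dhcr7. They were at 24.01, 39.7, and 50.5 CPM for Tm7sf2, at 98.9, 158, and 203 CPM for Sc5d, and at 148, 229, and 302 CPM for Msmo1, and each of these 6 was highest in K.

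Of the genes of control and export, Srebf2 and Insig1 went with the enzymes, and Srebf1 and Abca1 did not. Srebf2 was between 296 CPM in M and 519 in K, and Insig1 between 111 in H and 195 in K. Abca1 was at 299 and 425 CPM in H, 319.6, 337, 358, and 359 in J, and 351 in M, but at 146, 173, 226, and 256 in N, 159 and 177 in K, and 148, 154, and 192 in L. Every Abca1 library of H, J, and M lay above every library of K, L, and N, the reverse of the enzymes. Srebf1 was at 118 and 135 CPM in H, 106, 110.1, 111, and 131 in J, 113 in M, 61.3, 72.96, 84.6, and 92.6 in N, 69.6 and 77.03 in K, and 60.6, 61.3, and 75.96 in L, again with no overlap between H, J, and M and the others (adjusted p = 4.45e-06 for Srebf1 and 0.00118 for Abca1).

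Of the other LXR genes, Abcg1 and Nr1h2 moved less than Abca1 but mostly in its direction, and Mylip did not. Batch means of Abcg1 ran from -0.19 in N to 0.29 in H around the gene's mean on the log2 scale, and those of Nr1h2 from -0.19 in K to 0.29 in H. Nr1h2 lay on the same side of its mean as Abca1 in every batch, and Abcg1 did in every batch but M, where it was at -0.09. Mylip was highest in K, at 0.36, and lowest in M, at -0.26, which is the direction of the enzymes. In N, Mylip was at -0.18, on the side of Abca1, which was at -0.29 there. Scap differed least between batch means, by 0.0975 on the log2 scale.

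**Figure D2:**
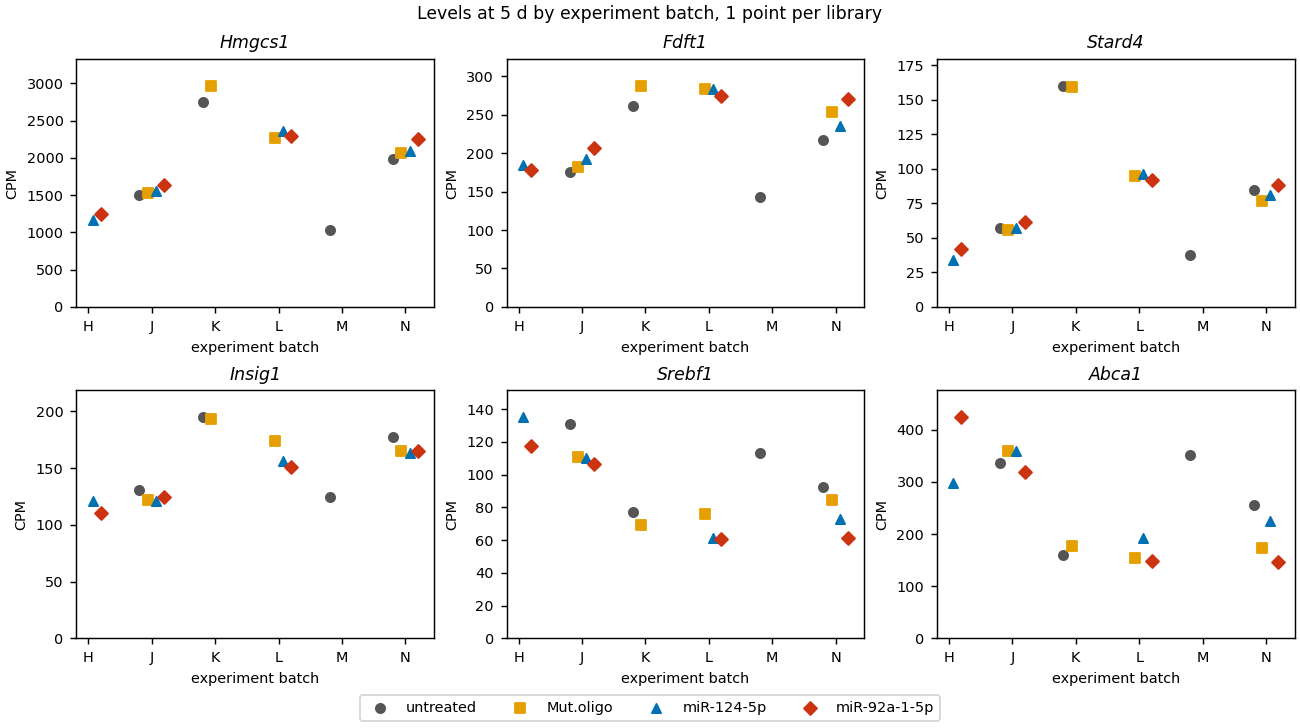
CPM of 6 members in the 16 libraries of 5 d, by experiment batch on the horizontal axis, with 1 point per library and color and shape for the group. Hmgcs1, Fdft1, Stard4, and Insig1 are high in batches K, L, and N and low in H, J, and M, Srebf1 and Abca1 are the reverse, and libraries of different groups lie close together within most batches.

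Libraries of the same batch lay close together. Over the 30 members, the median absolute difference of log2 CPM between 2 libraries of the same batch at 5 d had a median of 0.0781 over 17 pairs, against 0.389 over the 103 pairs from different batches. Over all genes tested the same medians were 0.124 and 0.181. In batch K, all 18 enzymes of both libraries lay above their mean over the 16 libraries, with medians of 0.60 and 0.54 on the log2 scale. In batch M, 0 of 18 did, with a median of -0.69, and in H, 0 and 2 of 18 did, with medians of -0.56 and -0.51. In J, at most 1 of 18 did in each of the 4 libraries, and in L and N at least 15 of 18 did in each of the 7.

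Markers of cell types differed between the same batches. The summed level of 7 astrocyte and radial glia genes, none of which was at 0 in any library, was 2363 to 2369 CPM in H, 2431 to 2808 in J, and 2785 in M, against 1771 to 1918 in K, 1714 to 1867 in L, and 1732 to 2037 in N, and 5 of the 7 passed the batch test. The summed level of 9 neuronal genes was 5687 CPM in M, 5693 to 6368 in H, 6619 to 6919 in J, 7209 to 7479 in N, 7343 to 7903 in L, and 8158 to 8439 in K, and 6 of the 9 passed. The glial sum was thus higher where the enzymes were lower, and the neuronal sum was higher where the enzymes were higher. Of the other lists, 5 of 7 microglial, 7 of 7 tested oligodendrocyte lineage, 2 of 5 endothelial, 3 of 5 mural, 4 of 4 fibroblast, and 4 of 4 cell cycle genes passed. The part of these cell types in the batch differences of the members was not tested. Of 17 sterol genes that are not members, 11 passed, with summed levels from 1569.8 to 1760.2 CPM in H to 2544 to 2652 in K, and of 10 fatty acid synthesis genes under SREBP control, 5 passed.

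At 6 h, the same test called 7 of 30, or 23.3%, against 28.2% of all 18755 genes and 36.8% of the genes at or above the average level of the lowest member. The 7 were Acat2, Nsdhl, Srebf1, Abca1, Abcg1, Nr1h2, and Cyp46a1, and the batches took a median of 51.6% of the sum of squares over the members against 61.3% over all genes. Where the members lay against all genes depended on the processing and on single batches. Without the filter on low counts, 20 of 30 members were called against 22% of all genes, and without batch F, 18 of 30 against 34.6%. Without batch A, 4 of 30 were called against 17.9% of all genes, and without batch E, edgeR called 0 of 30 against 14.6%.

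Abca1 had the widest ratio of highest to lowest library of the members at 6 h. It was at 49.5, 52.01, and 55.7 CPM in A, 61.7 and 68.8 in B, 74.1 in C, 54.5, 64.5, and 83.9 in D, 91.9, 99.5, 101, and 114 in E, 47.8 and 79.7 in F, and 126 in G (adjusted p = 3.22e-04). Srebf1 was at 48.3, 49.6, and 50.3 CPM in A, 62.6 and 69.3 in B, 61.6 in C, 45.6, 58.2, and 64.8 in D, 67.1, 69.2, 70.3, and 72.9 in E, 45.2 and 60.8 in F, and 74.8 in G (adjusted p = 0.00672). Both genes were lowest in the miR-124-5p library of F and highest in the Mut.oligo library of G. Abcg1 ran from 13.8 to 25.4 CPM with a median of 17.8. Acat2 ran from 199 to 293 CPM with a median of 256, and Nsdhl from 127 to 169.7 with a median of 151. Cyp46a1 ran from 30.2 to 39.9 CPM with a median of 34.8, and Nr1h2 from 25.6 to 32.3 with a median of 28.01.

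The enzymes at 6 h moved together from library to library within batches D and F, where the libraries differed most. In A, B, and E the libraries differed less. There 11 to 18 of 18 enzymes lay above their mean of the time point in A, 8 and 14 in B, and 2 to 10 in E. In batch F, all 18 enzymes of the miR-124-5p library lay above their mean of the time point, with a median of 0.129 on the log2 scale, and 0 of 18 of the Mut.oligo library did, with a median of -0.211. In batch D, 17 of 18 lay above it in the Mut.oligo library, 13 in the untreated library, and 0 in the miR-92a-1-5p library. Abca1 was low in the library where the enzymes were high in both batches. In F it was at 47.8 CPM in the miR-124-5p library and 79.7 in the Mut.oligo library, and in D at 54.5 in the Mut.oligo library, 64.5 in the untreated library, and 83.9 in the miR-92a-1-5p library.

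**Figure D3:**
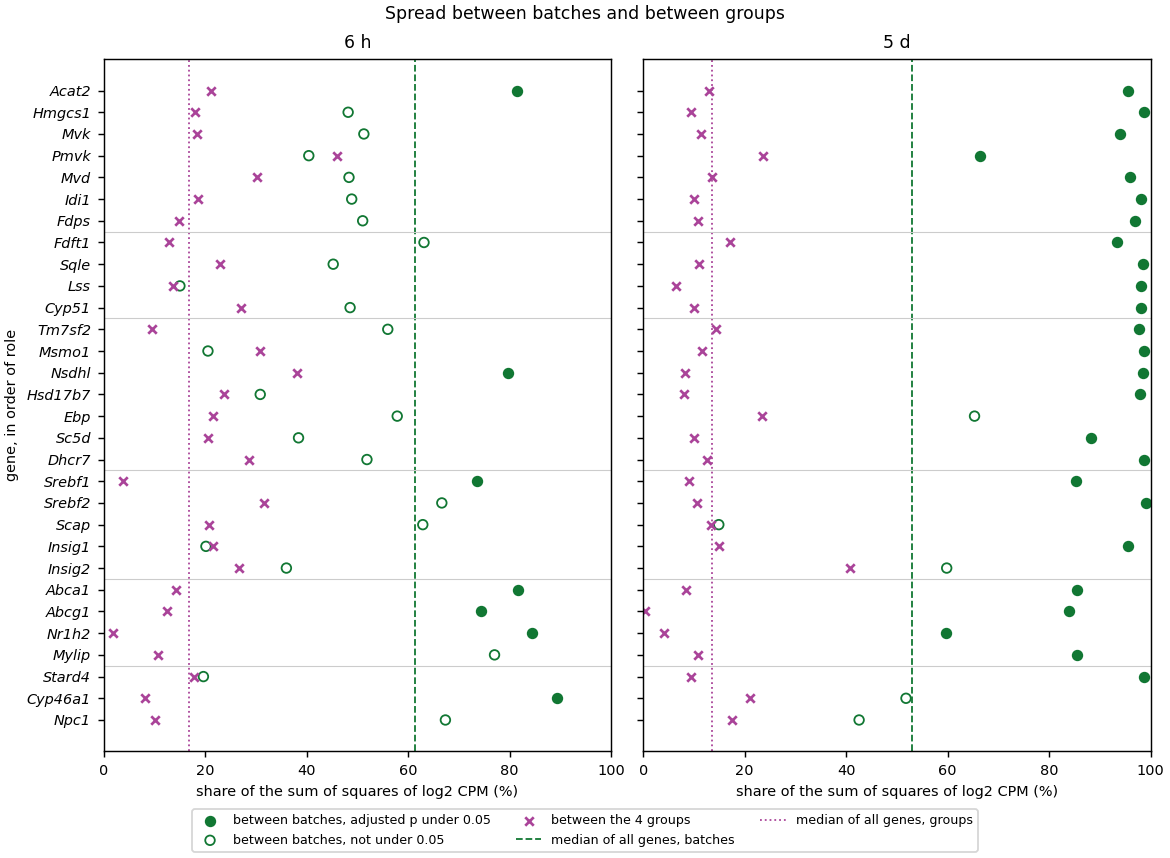
Share of the sum of squares of log2 CPM that lies between experiment batches (circles, filled where the batch test had an adjusted p under 0.05) and between the 4 groups (crosses) for each gene at 6 h and 5 d; lines give the medians of all genes tested. For the batch, 15 of 18 enzymes lie above 90% at 5 d, and 15 of 18 lie below the line of all genes at 61.3% at 6 h.

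The change between the time points was tested with all 32 libraries, and since the experiment batches of 6 h and 5 d do not overlap, the time and the batch cannot be told apart. In untreated cultures, 3 of 30 members were called higher at 5 d (19.1% of all 20425 genes were) and 4 were called lower (14.3% of all genes), where a call needs a log2 fold change beyond 0.5 besides an adjusted p under 0.05. The genes that rose were Abca1, Cyp46a1, and Srebf1, and those that fell were Fdft1, Acat2, Mvk, and Pmvk. The median log2 fold change was -0.40 over the 18 enzymes and 0.04 over all genes.

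Abca1 was at 64.5, 61.7, 49.5, and 91.9 CPM in the 4 untreated libraries of 6 h and at 337, 159, 351, and 256 in those of 5 d, in order of the replicate number. All 4 libraries of 5 d lay above all of 6 h, although the library of batch K was at less than the others (log2 fold change 2.02, SE 0.346, adjusted p = 1.25e-05). Cyp46a1 was at 32.1, 35.2, 32.3, and 38.3 CPM at 6 h and at 75.6, 72.004, 66.3, and 71.5 at 5 d (log2 fold change 1.02, SE 0.0786, adjusted p = 4.90e-12). Srebf1 was at 58.2, 69.3, 49.6, and 69.2 CPM at 6 h and at 131, 77.03, 113, and 92.6 at 5 d (log2 fold change 0.72, SE 0.227, adjusted p = 0.008). The groups were apart for all 3 genes. Scap, with 87.8, 89.7, 87.96, and 92.2 CPM at 6 h and 120.1, 123, 117, and 121 at 5 d, had the second smallest adjusted p of the members but a change below the fold threshold (log2 fold change 0.40, SE 0.0425, adjusted p = 3.56e-09).

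Fdft1 was at 344, 348, 337, and 328 CPM at 6 h and at 176, 261, 143, and 217 at 5 d, with all libraries of 5 d below those of 6 h (log2 fold change -0.80, SE 0.150, adjusted p = 4.81e-05). Acat2 was at 272, 248, 285, and 238 CPM at 6 h and at 145, 244, 91.96, and 178 at 5 d, and Mvk at 55.9, 59.3, 61.4, and 58.3 and at 30.4, 63.8, 19.6, and 43.5. In both genes the library of batch K, the second value at 5 d, overlapped those of 6 h (log2 fold change -0.69, SE 0.206, adjusted p = 0.00532 for Acat2; log2 fold change -0.61, SE 0.224, adjusted p = 0.0223 for Mvk). Pmvk was at 86.1, 83.8, 83.01, and 78.9 CPM at 6 h and at 52.5, 68.3, 48.8, and 61.8 at 5 d, with no overlap (log2 fold change -0.55, SE 0.114, adjusted p = 1.62e-04). The count of members that fell depended on single libraries of 5 d: it was 12 without replicate 2 (batch K), 1 without replicate 3 (batch M), and 2 without replicate 1 (batch J). The shares of all genes without these libraries are not given here. Mvk had an adjusted p of 0.0789 in a fit of the untreated libraries alone. With 1 library left out, its log2 fold change ran from -0.91 to -0.39, at the weakest under the fold threshold. Pmvk lay just under the fold threshold without 6 h replicate 1, 5 d replicate 1, or 5 d replicate 3, and Acat2 did without 5 d replicate 3. Abca1, Cyp46a1, and Srebf1 were called under every alternative tried.

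**Figure D4:**
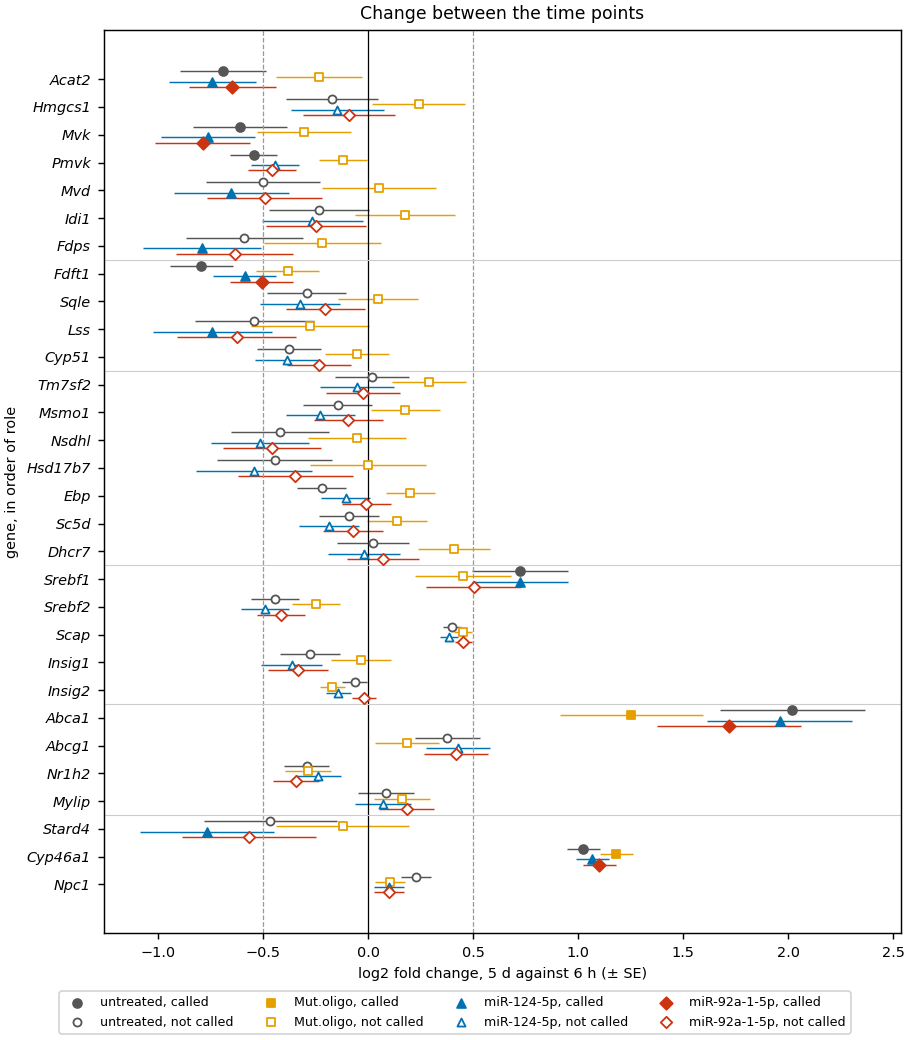
Log2 fold change of each gene between 5 d and 6 h with its SE, by group (color and shape), filled where the gene was called; dashed lines mark the fold threshold of 0.5 in either direction. Abca1 and Cyp46a1 are called higher in all 4 groups, and most enzymes lie below 0 in 3 of the 4 groups but around 0 after Mut.oligo.

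After miR-92a-1-5p, 2 members rose between the time points, Abca1 (log2 fold change 1.72, SE 0.342, adjusted p = 8.88e-05) and Cyp46a1 (log2 fold change 1.10, SE 0.0784, adjusted p = 7.66e-13), against 18.3% of all genes, and 3 fell, Mvk, Acat2, and Fdft1, against 15.7%. After miR-124-5p, 3 rose, Abca1, Cyp46a1, and Srebf1, against 19.5% of all genes, and 7 fell, Fdps, Stard4, Mvk, Acat2, Lss, Mvd, and Fdft1, against 14.7%. The log2 fold changes of these 7 ran from -0.79 for Fdps to -0.59 for Fdft1. After Mut.oligo, 2 rose, Cyp46a1 (log2 fold change 1.18, SE 0.0791, adjusted p = 1.81e-13) and Abca1 (log2 fold change 1.25, SE 0.339, adjusted p = 0.00241), against 18.7% of all genes. With edgeR 0 of 30 fell there, against 15.4% of all genes, and with DESeq2 also 0. In either direction, 8 of 30 members had an unadjusted p under 0.05, against 12004 of all 20425 genes. The 4 Mut.oligo libraries of 5 d include none of batches H and M, where the enzymes were lowest. At 6 h, the Mut.oligo libraries of F and G had the lowest enzyme medians, at -0.211 and -0.198 on the log2 scale around the mean of the time point. The part of the batches in the counts after Mut.oligo was not tested.

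Libraries of single batches also set these counts. After miR-92a-1-5p, the number of members that fell was 1 without the 5 d library of batch H and 5 without that of L or of N, and the number that rose was 4 without the 6 h library of batch D and 5 without the 5 d library of N. After miR-124-5p, the number that fell was 3 without the 5 d library of H, 2 without that of J, and 4 without the 6 h library of C or of F. These are counts of members only, not set against all genes in the same fits. Abca1 was at 425, 319.6, 148, and 146 CPM in the 4 libraries of 5 d after miR-92a-1-5p, 299, 359, 192, and 226 with miR-124-5p, and 358, 177, 154, and 173 with Mut.oligo. At 6 h it was at 52.01, 83.9, 114, and 68.8, 99.5, 47.8, 74.1, and 55.7, and 101, 79.7, 54.5, and 126 CPM, respectively. The groups of the 2 time points did not overlap in Abca1 in any arm. Cyp46a1 was at 71.5, 73.7, 77.1, and 70.1 CPM at 5 d after miR-92a-1-5p, 86.04, 77.5, 75.6, and 63.7 with miR-124-5p, and 77.2, 74.95, 85.7, and 75.6 with Mut.oligo, all above every library of 6 h, where the highest was at 39.9.

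No member passed a test of whether the time change differed between an oligoribonucleotide and untreated. The model held no term for the experiment batch, so that spread between batches counted as error in this test. With edgeR, 0 of 30 members passed for any of the 3, DESeq2 also gave 0, and 0% of all genes passed in any of the 3 tests. At an unadjusted p under 0.05 there were 0 members for either microRNA and 2, Pmvk and Ebp, for Mut.oligo. Of all 20425 genes, 1133 had such a p for Mut.oligo. The difference of Pmvk was 0.43 on the log2 scale with a SE of 0.161 (adjusted p = 0.857). In Mut.oligo cultures Pmvk was at 70.6, 61.3, 81.9, and 58.02 CPM at 6 h and 52.3, 66.1, 72.1, and 61.7 at 5 d. The smallest unadjusted p belonged to Fdft1 for miR-92a-1-5p and to Npc1 for miR-124-5p. After miR-92a-1-5p Fdft1 was at 341, 325, 311, and 348 CPM at 6 h and 178, 206, 274, and 271 at 5 d. The median SE of the difference over the members was 0.238 for miR-92a-1-5p, and 11 of the 30 had a 95% interval within 0.5 there, against 6 for Mut.oligo.

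The 3 oligoribonucleotides were compared with untreated at each time point to ask whether exposure moved the module. At 6 h, edgeR called 0 of 30 members after any of them, as it called 0% of all genes in each, and DESeq2 called 0 members too. At an unadjusted p under 0.05 there was 1 member after miR-92a-1-5p and 1 after Mut.oligo, both times Pmvk, and there were 0 after miR-124-5p. Of all 18755 genes, 891 had such a p after miR-92a-1-5p, 1780 after Mut.oligo, and 852 after miR-124-5p. The log2 fold changes of the members ran from -0.21 to 0.24 after miR-92a-1-5p, from -0.11 to 0.08 with miR-124-5p, and from -0.28 to 0.44 after Mut.oligo. The 95% interval of the difference lay within 0.5 in either direction for 29 of the 30 members after either microRNA and for 28 after Mut.oligo.

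Pmvk, the phosphomevalonate kinase, was at 86.1, 83.8, 83.01, and 78.9 CPM in untreated libraries and at 73.3, 65.2, 70.2, and 79.98 after miR-92a-1-5p (log2 fold change -0.21, SE 0.0919, adjusted p = 0.9989). After Mut.oligo it was at 70.6, 61.3, 81.9, and 58.02 CPM (log2 fold change -0.28, SE 0.0928, adjusted p = 0.386), and after miR-124-5p at 74.2, 88.8, 78.8, and 73.55. Each treated group overlapped the untreated one in at least 1 library. Insig2 was at 25.2, 25.6, 24.4, and 25.3 CPM in untreated libraries and 23.6, 22.6, 23.7, and 25.7 after miR-92a-1-5p, and Cyp51 at 498, 451, 481, and 459.8 and 466, 429, 429, and 448. The ranges overlapped for both genes, each with an adjusted p of 0.9989.

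After miR-124-5p the smallest p values belonged to Nsdhl, Npc1, and Idi1. Nsdhl was at 147, 149, 165, and 145 CPM in untreated libraries and 147, 159.6, 164, and 169 after miR-124-5p, and Npc1 at 49.2, 48.4, 48.9, and 49.6 and 50.02, 49.6, 51.7, and 51.95. Idi1 was at 39.2, 39.9, 40.1, and 39.02 CPM in untreated libraries and 31.5, 46.4, 33.5, and 35.6 after miR-124-5p, where the library of batch F stood above and those of A, C, and E stood below all 4 untreated libraries. The ranges overlapped for all 3 genes (each adjusted p = 0.9999). After Mut.oligo, Msmo1 was at 209, 186, 254, and 209 CPM against 233, 237, 248, and 238 in untreated, and Mvd at 123, 103, 131, and 109 against 126, 122, 142, and 131 (both adjusted p = 0.561).

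Against Mut.oligo at 6 h, 0 of 30 members were called for either microRNA by edgeR or DESeq2, with 0% of all genes called. At an unadjusted p under 0.05 there were 3 for miR-124-5p, which were Nsdhl, Pmvk, and Dhcr7, and 0 for miR-92a-1-5p. Of all 18755 genes, 671 had such a p for miR-124-5p and 398 for miR-92a-1-5p. Nsdhl was at 144, 138, 154, and 127 CPM after Mut.oligo and Dhcr7 at 141, 125.2, 154, and 137, against 149.7, 158, 156, and 159 for Dhcr7 after miR-124-5p. For miR-92a-1-5p the smallest p values belonged to Nsdhl, with 169.7, 142, 153, and 160.5 CPM, Insig2, and Abcg1. Abcg1 was at 14.6, 23.6, 18.2, and 14.3 CPM after miR-92a-1-5p and 17.5, 25.4, 19.98, and 17.2 after Mut.oligo, and Insig2 at 23.8, 24.45, 26.1, and 25.7 after Mut.oligo. Every one of these pairs of groups overlapped.

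With the batch in the model, edgeR still called 0 of 30 members at 6 h after each oligoribonucleotide, against 0.208% of all genes for miR-92a-1-5p, 0% for miR-124-5p, and 0.0213% for Mut.oligo. There 1 member after miR-92a-1-5p and 0 after the others had an unadjusted p under 0.05, and DESeq2 with the batch also called 0. After miR-92a-1-5p, 2505 of all 18755 genes had such a p in the edgeR fit. Within batches that hold an untreated library, all 8 treated libraries lay below the untreated library of their own batch for Pmvk and Srebf2, and all 8 lay above it for Npc1. These are 2 and 1 of 30 members, where 3.82% and 4.51% of all genes behaved so, and treated libraries of a batch share its untreated library.

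At 5 d, edgeR called 0 of 30 members after any oligoribonucleotide without a covariate, against 0.00517% of all genes for miR-92a-1-5p and 0% for the others, and DESeq2 called 0. No member had an unadjusted p under 0.05 in these 3 comparisons. The median SE of the 18 enzymes was 0.252 after miR-92a-1-5p, against 0.141 over all genes, so that only 13 of 30 members had a 95% interval within 0.5. Against Mut.oligo, 0 of 30 members were called for either microRNA by either tool, with 0% of all genes called and 0 members at an unadjusted p under 0.05.

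Fdft1 had the smallest p after miR-92a-1-5p, at 176, 261, 143, and 217 CPM in untreated libraries and 178, 206, 274, and 271 after miR-92a-1-5p (log2 fold change 0.24, SE 0.195, adjusted p = 0.9999). After miR-124-5p it was at 184, 192, 284, and 235 CPM. Leaving out 1 library moved the log2 fold change after miR-92a-1-5p to 0.11 without the untreated library of batch M, 0.16 without the treated library of L or of N, and 0.39 without the untreated library of K. Npc1 was at 57.4, 52.4, 65.1, and 58.6 CPM in untreated libraries and 59.1, 55.5, 51.5, and 48.9 after miR-92a-1-5p, and Pmvk at 52.5, 68.3, 48.8, and 61.8 and 42.99, 49.3, 61.9, and 55.05. After miR-124-5p and Mut.oligo the smallest p belonged to Insig2, at 25.7, 22.4, 25.8, and 23.9 CPM in untreated, 20.4, 22.8, 23.3, and 22.03 with miR-124-5p, and 23.9, 21.99, 22.2, and 21.4 with Mut.oligo (log2 fold change -0.13, SE 0.0669, adjusted p = 0.9992). All of these groups overlapped.

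Cyp46a1 was at 75.6, 72.004, 66.3, and 71.5 CPM in untreated libraries of 5 d, against the values after exposure given above. Ebp was at 11.3, 13.9, 9.66, and 9.84 CPM in untreated, 10.6, 15.3, 13.6, and 12.6 after Mut.oligo, and 11.8, 10.7, 11.5, and 10.8 after miR-124-5p. Against Mut.oligo, the members with the smallest p were Pmvk, Tm7sf2, and Mvk for miR-92a-1-5p and Ebp, Mvd, and Acat2 for miR-124-5p. Pmvk was at 42.99, 49.3, 61.9, and 55.05 CPM after miR-92a-1-5p and 52.3, 66.1, 72.1, and 61.7 after Mut.oligo, and Tm7sf2 at 25.4, 29.5, 39.9, and 39.5 and 29.7, 50.5, 46.5, and 42.8. Mvk was at 23.2, 30.1, 42.4, and 41.96 CPM after miR-92a-1-5p and 28.05, 61.5, 51.1, and 42.5 after Mut.oligo. Mvd was at 66.1, 70.6, 110.05, and 86.4 CPM after miR-124-5p and 70.05, 169, 138, and 109 after Mut.oligo, and Acat2 at 126, 142, 181, and 176 and 141, 257, 225, and 184. The library of batch H was the lowest miR-92a-1-5p library of Pmvk, Tm7sf2, and Mvk and the lowest miR-124-5p library of Mvd and Acat2, Mut.oligo has none there, and all groups overlapped.

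With the batch in the model, the error of the enzymes at 5 d was smaller than without it. The untreated library of M is alone in its batch and adds nothing to these comparisons, and H and L hold no untreated library. Direct comparisons within a batch come from J and N for either microRNA, and from J, K, and N for Mut.oligo. The median SE of the enzymes was 0.0675 after miR-92a-1-5p, against 0.112 over all genes, and 28 of the 30 members had a 95% interval within 0.5. The call rule still took 0 of 30 members with edgeR, and 0 with DESeq2, against 0.352% of all genes. An unadjusted p under 0.05 was found for 7 members and for 2082 of all 19333 genes. For miR-124-5p, 30 of 30 intervals lay within 0.5 and 0 members were called by either tool against 0.0259% of all genes. There, 3 members and 927 of all genes had an unadjusted p under 0.05. For Mut.oligo, 29 intervals lay within 0.5 and 0 members were called by either tool against 0.0466% of all genes. There, 2 members and 812 of all genes had an unadjusted p under 0.05. The median log2 fold change of the 30 members after Mut.oligo was 0.18 without the covariate and 0.01 with it.

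Srebf1 was the only member with an adjusted p under 0.05 in that fit with edgeR. After miR-92a-1-5p its change stayed under the fold threshold (log2 fold change -0.43, 95% interval -0.58 to -0.28, adjusted p = 0.0215), and DESeq2 with the batch gave -0.43 with an adjusted p of 4.52e-05. Without the covariate the edgeR estimate was -0.24 (adjusted p = 0.9999), and it ran from -0.10 without the treated library of batch L to -0.43 without that of H. After miR-124-5p it did not pass (log2 fold change -0.30, 95% interval -0.45 to -0.14, adjusted p = 0.346), nor after Mut.oligo (log2 fold change -0.15, 95% interval -0.29 to -0.01, adjusted p = 0.99996). Srebf1 was at 131, 77.03, 113, and 92.6 CPM in untreated libraries, 118, 106, 60.6, and 61.3 with miR-92a-1-5p, 135, 110.1, 61.3, and 72.96 with miR-124-5p, and 111, 69.6, 75.96, and 84.6 with Mut.oligo. The groups overlapped across batches, but within a batch every treated library lay below the untreated one. In batch J the differences on the log2 scale were -0.30 with miR-92a-1-5p, -0.25 with miR-124-5p, and -0.24 with Mut.oligo. In batch N they were -0.60, -0.34, and -0.13, and in K it was -0.15 after Mut.oligo.

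Markers of other cells moved with Srebf1. With the batch in the model, edgeR called 4 of 7 tested oligodendrocyte lineage genes (median log2 fold change -0.94), 4 of 4 cell cycle genes (median -0.88), 2 of 5 mural genes (median -0.61), and 1 of 5 endothelial genes (median -0.19) lower after miR-92a-1-5p. It called 0 of 7 astrocyte and radial glia genes (median -0.23), 0 of 7 microglial genes (median -0.19), 0 of 4 fibroblast genes (median -0.38), and 0 of 9 neuronal genes (median 0.09), and the median of all genes was -0.01. The summed astrocyte level was 2808 CPM in the untreated library of J against 2431 to 2505 in the treated ones, 2037 in that of N against 1732 to 1950, and 1918 in that of K against 1771. The summed oligodendrocyte lineage level was 206 CPM in the untreated library of J against 119 to 143 in the treated ones, 170 in that of N against 94.8 to 130, and 198 in that of K against 144. All 7 treated libraries thus had lower sums of both lists than the untreated library of their batch, as for Srebf1. Treated libraries of a batch share that untreated library. The endothelial, mural, fibroblast, and cell cycle sums were also lower in all 7. Microglial and neuronal sums were not lower in all of them. The part of these cell types in the difference of Srebf1 was not tested.

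Among the enzymes in the same fit, Fdft1 (log2 fold change 0.23, 95% interval 0.11 to 0.36, adjusted p = 0.128) and Hmgcs1 (log2 fold change 0.17, 95% interval 0.06 to 0.27, adjusted p = 0.189) had positive estimates after miR-92a-1-5p that did not pass with edgeR. DESeq2 with the batch gave 0.24 for Fdft1 with an adjusted p of 0.0296, which is under 0.05 but also under the fold threshold. After miR-124-5p the estimate of Fdft1 was 0.18 and that of Hmgcs1 0.11, and after Mut.oligo they were 0.15 and 0.07. Within batches, all 7 treated libraries lay above the untreated library of their batch for Hmgcs1 and Fdft1, and all 7 lay below it for Mvk, Pmvk, Srebf1, Insig1, and Insig2. These are 2 and 5 of 30 members, where 3.75% and 7.15% of all genes behaved so. The within-batch differences of Abca1 had no common sign, from -0.82 after miR-92a-1-5p in N to 0.16 after Mut.oligo in K.

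**Figure D5:**
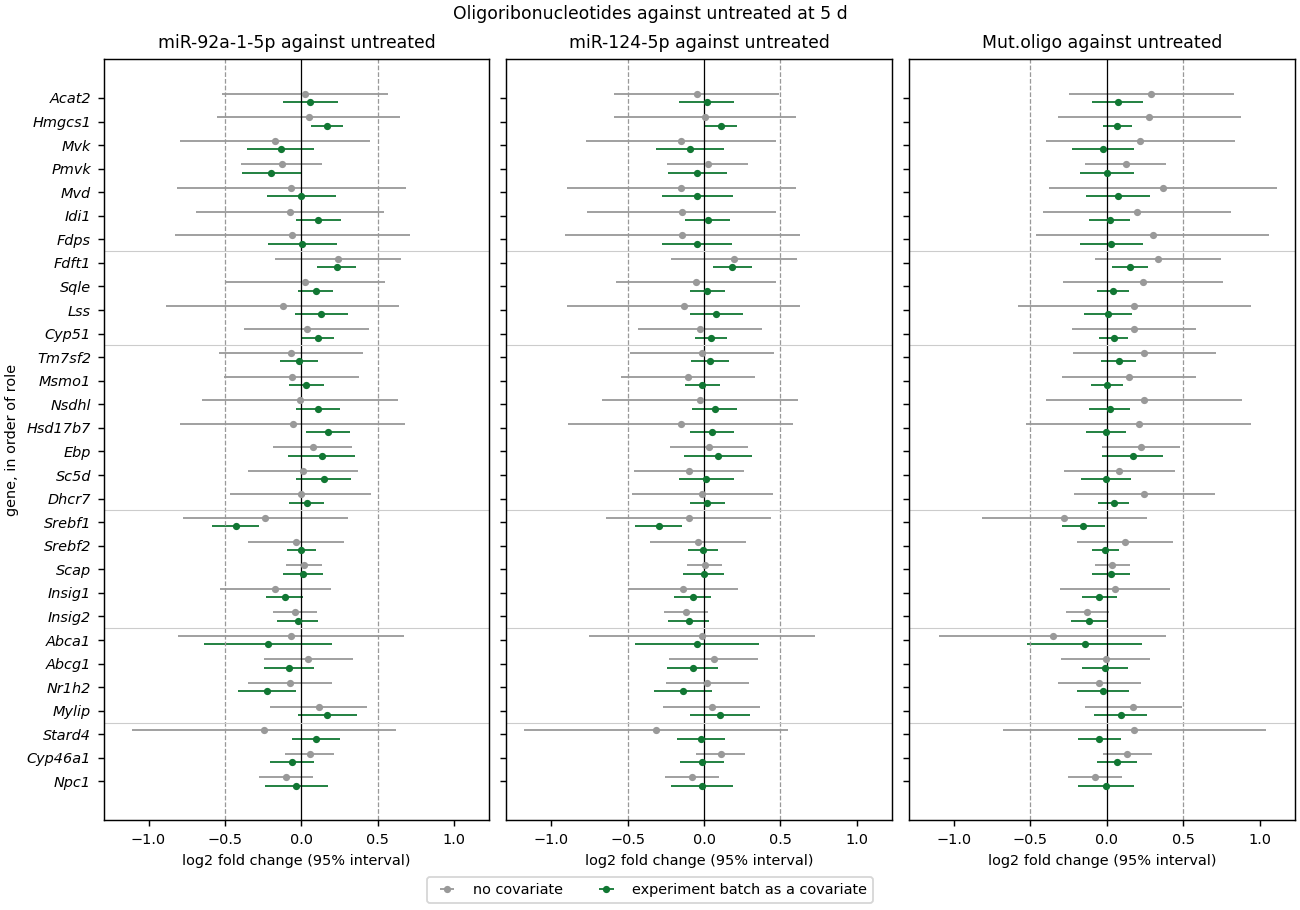
Log2 fold change of each gene against untreated at 5 d with its 95% interval, 1 panel for each oligoribonucleotide, without a covariate (gray) and with the batch in the model (green); dashed lines mark 0.5 in either direction. The intervals of the enzymes narrow with the covariate, and the interval of Srebf1 excludes 0 in all 3 panels only then.

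Neither list of related lipid genes gave a call in the comparisons of oligoribonucleotides. Of the 17 sterol genes that are not members, 16 were tested at 6 h and 17 at 5 d, and 0 were called by edgeR in any comparison with untreated or Mut.oligo, with or without the covariate. The same held for the 10 fatty acid synthesis genes under SREBP control. Between the time points in untreated cultures, 5 of the 17 sterol genes rose and 1 fell, and 4 of the 10 fatty acid genes rose and 0 fell. In the same comparison, 6 of 7 astrocyte and radial glia genes and 3 of 7 microglial genes rose, 2 of 9 neuronal genes rose and 1 fell, and 4 of 4 cell cycle genes fell. The summed astrocyte level was 553 to 1263 CPM over the libraries of 6 h and 1714 to 2808 at 5 d, and the neuronal sum 6368 to 7275 and 5687 to 8439. The part of these cell types in the change of Abca1, Srebf1, and the enzymes between the time points was not tested.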

How the data were processed

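The mRNA of 32 mouse cortical neuron cultures was sequenced in strand-specific, single-end libraries. The authors mapped the reads to GRCm38 with STAR and counted those in exons with featureCounts, and they deposited raw gene counts without normalization. The table holds 49671 genes, of which 49326 matched a symbol in GENCODE M21, and 0 columns were left unused. Counts were kept where at least 5 were seen in at least 3 libraries, scaled by TMM, and tested with edgeR 4.0.16 (quasi-likelihood test, R 4.3.3) over all genes, each time point in one fit of its 4 groups and the change between time points in one fit of all 8. A gene was called where its log2 fold change lay beyond 0.5 and its p, adjusted after Benjamini-Hochberg, was under 0.05. The experiment batch was tested beside the group term by an F test over its coefficients, called by the adjusted p alone. CPM is TMM-scaled, and log2 CPM used a prior count of 2. Replicate pairs differed by more than sampling noise, and none were identical. The fits were tested on simulated data.

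All 30 members are named by role. Values of every library are given for called members, for the 3 members of smallest p where none was called, and for at most 12 members called between the time points in untreated cultures. For the batch test, where 25 members were called at 5 d, ranges are given for most of them, and the members shown by batch were chosen after their values were seen. The members and the gene lists were chosen with earlier results of these data known. Alternatives were DESeq2 1.42.0, other filters and scaling, no minimum fold, the batch or the replicate number in the model, and each replicate left out. Leaving out each batch, and the batch covariate with no minimum fold, were chosen after seeing the data. Depth was 24514090 to 73626029 counts per library. The floor of 3 counts covers counting error only.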

Additional observations from a re-analysis of the deposited data

Results flagged for a closer look

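In 5 of 240 groups of 4 libraries, 1 library of a member stood apart from the other 3 by more than Dixon's criterion allows, where chance gives about 1 group in 20. Abca1 was at 358 CPM in Mut.oligo replicate 1 of 5 d (batch J), against 154 to 177 in the others. The value lay within the range of the other libraries of batch J given above, and the other Mut.oligo libraries of 5 d were of K, L, and N. Abcg1, the other LXR-controlled exporter, was at 24.9 CPM in that Mut.oligo library of J, against 22.3 to 22.5. Npc1 was at 52.3 CPM in Mut.oligo replicate 3 of 5 d (batch L), against 56.1 to 56.7. Ebp was at 9.80 CPM in miR-92a-1-5p replicate 1 of 5 d (batch H), with the others at up to 12.4. Tm7sf2 was at 29.3 CPM in Mut.oligo replicate 2 of 6 h (batch F), against 35.5 to 36.6. The cause was not tested.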

How the results depend on the processing

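Of 332 counts of called members under an alternative, 304 stayed within 1.5 times the reported count, and 170 of 171 in the comparisons of oligoribonucleotides were 0. The other was 1 member, Srebf1, with edgeR after miR-92a-1-5p at 5 d with the batch as a covariate and no minimum fold. The batch count at 6 h was 20 with no filter on low counts, where 22% of all genes passed, and 4, 0, and 18 without batches A, E, and F, where 17.9%, 14.6%, and 34.6% did. With no minimum fold, the members higher and lower at 5 d were 6 and 7 in untreated, 4 and 7 for miR-92a-1-5p, 4 and 3 for Mut.oligo, and 5 and 12 for miR-124-5p. The number lower after miR-92a-1-5p was 5 with no filter and 6 with only the 2 groups compared. Leaving out 1 library at a time gave 1 to 12 members lower in untreated, 2 to 10 lower after miR-124-5p, and, for miR-92a-1-5p, 2 to 5 higher and 1 to 5 lower. The cause was not tested. Shares of all genes are not given for these counts between the time points. With the replicate number as a block, the number lower after miR-92a-1-5p was 5 against 3, and the other counts stayed within 1.5 times, with 0 in every comparison of oligoribonucleotides. At 6 h the number did not pair the libraries. Only 5 of 24 same-numbered pairs had a correlation of deviations above 0.1, and 1 of 16 libraries correlated best with its own number. At 5 d the number went in part with the batch, since all libraries numbered 4 were of batch N. There 13 of 24 same-numbered pairs were above 0.1, and 8 of 16 libraries correlated best with their own number. Of 176 values of named genes, 9 (Acat2, Mvk, and Pmvk between the time points) lost their call, and 0 reversed.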
